A study of Mus musculus with 4 samples.

Results

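Sub1 CUT&Tag peaks shared by all 4 libraries of the series fell mostly at genes, and 2332 of the 15337 shared regions lay more than 1 kb outside every protein-coding gene. These 2332 shared intergenic regions are described here. They were chosen by the presence of a deposited peak in each library: peaks on the main chromosomes that overlapped by at least 1 bp were merged into 285131 union regions, and regions with a peak in all 4 libraries and over 1 kb from any protein-coding gene of the RefSeq annotation of GRCm38 (mm10) were kept. Members therefore made up 0.818% of all regions and 15.2% of the shared ones. That they carry a peak in every library, and that they are intergenic, is fixed by this choice and is not a finding.

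The libraries came from mouse bone marrow, 2 from hematopoietic stem cells (HSCs) of Nup214fl/+ mice, sorted as CD48-CD150+LSK cells, and 2 from leukemia stem cells (LSCs) of Nup214fl/+ mice in which the MLL-AF9 fusion drives the disease, sorted as Lin-, Sca-1-, c-Kit+, CD16/32+ and CD34+ cells. All animals carried 1 floxed Nup214 allele, no Cre is named in the labels, and the antibody was Sub1 (A7070, Abclonal). The sample field for cell type reads hematopoietic stem cell in all 4 cases, so groups follow the sample titles and the sort. CUT&Tag tethers a transposase to an antibody and cuts DNA near its target, and neither an input nor an IgG control was analysed here. Whether each library had its own donor mouse is not stated, so tests measure the spread between these libraries only. Peak names in all lists start with H4-Cut, a prefix with no explanation in the labels, and Sub1 is taken as the target from the labels alone.

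Sub1, also called PC4, is a small nuclear protein that binds single-stranded DNA and acts as a cofactor of RNA polymerase II. It has also been linked to transcription by RNA polymerase III, the enzyme that makes tRNA, 5S rRNA, 7SK RNA and Y RNA. DNA outside protein-coding genes holds distal enhancers, the starts of long non-coding RNAs (lncRNAs), microRNA hosts and most genes of the small structured RNAs, as well as repeats that differ between copies of the genome and the assembly.

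The libraries differed in the number of peaks, from 33885 (LSC 2) and 40743 (LSC 1) to 115195 (HSC 1) and 234417 (HSC 2) on the main chromosomes. With a peak within 1 kb of either annotated end, 9 to 10 of 10 granulocyte-monocyte progenitor marker genes were occupied in each library. Of 10 HSC markers, HSC 1 had 4, HSC 2 had 5 and each LSC library 2. Of 5 T and NK cell markers, HSC 1 had 3, HSC 2 had 5 and the LSC libraries 0. Of 10 mature neutrophil markers, each HSC library had 10 and each LSC library 8. Erythroid (1 to 4 of 6) and B cell markers (1 to 3 of 4) were also lower in the LSC libraries. A peak at a marker is not expression, the HSC lists were also the longer ones, and the part of other cell types or of list length in these counts and in the results below was not tested.

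Sequences carrying the non-coding side of the set are shown first. Of 5990 lncRNA genes with a start outside protein-coding genes in the RefSeq table of start windows (GRCm38), 273 (4.56%) had a start inside a member. Each window holds 250 bases before the start and 50 from it on. Capitals mark matches to 8 short motifs on either strand: CCAAT (the CCAAT box), GGGCGG (the GC box core), TATAAA (the TATA box), CCGGAAG (letters of ETS factor sites), TGAGTCA (letters of AP-1 sites), CACGTG (an E-box), TGACGTCA (the cAMP response element) and TGTGGT (letters of RUNX sites). Matches may overlap. A match describes the letters and is no evidence of binding. Shown are Snhg20, among the lncRNA starts of high rank in all libraries, Dancr and Firre, which ranked higher in the LSC libraries, and F630028O10Rik, the host transcript of miR-223.
Snhg20, chr11:117076533-117076832, plus strand: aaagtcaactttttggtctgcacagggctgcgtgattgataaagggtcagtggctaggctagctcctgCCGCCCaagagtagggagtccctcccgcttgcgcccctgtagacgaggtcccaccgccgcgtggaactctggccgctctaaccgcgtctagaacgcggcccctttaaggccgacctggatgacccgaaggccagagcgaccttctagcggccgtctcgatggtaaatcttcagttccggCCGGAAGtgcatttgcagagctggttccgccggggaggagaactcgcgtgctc
Dancr, chr5:74092810-74093109, plus strand: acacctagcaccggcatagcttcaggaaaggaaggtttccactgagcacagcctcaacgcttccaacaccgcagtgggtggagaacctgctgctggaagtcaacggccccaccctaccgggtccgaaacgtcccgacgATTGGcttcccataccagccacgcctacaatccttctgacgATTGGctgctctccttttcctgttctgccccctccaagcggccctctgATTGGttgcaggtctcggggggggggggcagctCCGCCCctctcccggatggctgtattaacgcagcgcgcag
Firre, chrX:50635272-50635571, minus strand: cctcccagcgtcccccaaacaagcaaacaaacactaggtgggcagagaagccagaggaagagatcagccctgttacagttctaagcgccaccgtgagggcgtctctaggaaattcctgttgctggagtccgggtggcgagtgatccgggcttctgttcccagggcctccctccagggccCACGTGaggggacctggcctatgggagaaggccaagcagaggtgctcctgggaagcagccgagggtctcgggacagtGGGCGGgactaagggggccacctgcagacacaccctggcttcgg
F630028O10Rik, chrX:96239676-96239975, plus strand: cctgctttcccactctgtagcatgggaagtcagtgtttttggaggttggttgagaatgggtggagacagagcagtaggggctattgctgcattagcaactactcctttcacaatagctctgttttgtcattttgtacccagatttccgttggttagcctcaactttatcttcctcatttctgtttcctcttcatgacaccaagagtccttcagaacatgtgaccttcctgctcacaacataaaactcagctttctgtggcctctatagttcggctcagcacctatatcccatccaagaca
The Snhg20 window held 25 CpG dinucleotides, the Dancr window 18 and the Firre window 12. That of F630028O10Rik held 2 and none of the 8 motifs.

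Windows with 12 or more CpG made up 31.7% of the 322 start windows inside members, 4.65% of the 6974 other lncRNA windows outside coding genes and 39.6% of all 32851 start windows of the table. The median GC content was 53.0% in members, 46.7% in the other lncRNA windows and 52.7% in all windows. GGGCGG occurred in 29.2%, 8.32% and 35.7% of windows in the same order, and CCGGAAG in 9.32%, 2.55% and 8.86%. CACGTG occurred in 11.5%, 5.45% and 7.15%. CCAAT occurred in 32.9%, 38.1% and 37.4% and TATAAA in 12.7%, 17.9% and 13.6%. TGAGTCA stood at 5.9%, 7.0% and 5.2%, TGTGGT at 19.9%, 21.1% and 16.8%, and TGACGTCA at 2.17%, 0.731% and 1.79%. In GC content, CpG and 7 of the 8 motifs, the values of lncRNA starts inside members lay nearer to those of all windows than to those of other lncRNAs, by a small margin for CCAAT, and TGTGGT was the exception.

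The summit of the strongest peak lay within 500 bp of the gene start in 56.5%, 54.7%, 61.8% and 65.5% of these windows in HSC 1, HSC 2, LSC 1 and LSC 2. At Firre, the summits lay 82, 42, 79 and -2 bp from the start. Those at Dancr lay 224, 468, 222 and 222 bp into the gene. At F630028O10Rik they lay 545, 537, 545 and 538 bp into it.

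Members over microRNA genes numbered 11. For 11 microRNA genes at 10 of these regions, 20 mature sequences were matched in the RefSeq table, and their seeds (bases 2 to 8, in capitals) were all different. The 5 shown belong to genes known in blood or skin: miR-223 is a myeloid microRNA, let-7i belongs to the let-7 family, miR-146b dampens inflammatory signalling, miR-193a acts in hematopoietic cells and miR-203 in the epidermis.
mmu-miR-223-3p, chrX:96242884-96242905: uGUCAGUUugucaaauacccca
mmu-let-7i-5p, chr10:122985698-122985719: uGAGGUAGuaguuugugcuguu
mmu-miR-146b-5p, chr19:46342790-46342811: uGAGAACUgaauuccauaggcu
mmu-miR-193a-3p, chr11:79712009-79712030: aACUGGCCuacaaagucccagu
mmu-miR-203-3p, chr12:112130927-112130948: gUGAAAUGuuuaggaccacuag

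Levels are given as the fold enrichment that the authors' peak caller assigned to the strongest peak of a region, and as its percentile among the 15337 shared regions of the same library, where 100 is the highest. Folds of different libraries are not on a common scale and are not compared. The region over Mir223 (chrX:96238478-96246094) had folds of 28.0, 53.0, 133 and 118, given here and below in the order HSC 1, HSC 2, LSC 1, LSC 2. Its percentiles were 65.9, 82.5, 75.3 and 85.2, so the groups overlapped in rank. The let-7i region (chr10:122981931-122989294) stood at 62.2, 60.1, 51.9 and 56.5, with both HSC libraries above both LSC libraries by a few points. The Mir146b region (chr19:46340387-46345428) stood at 55.7, 58.6, 41.5 and 39.8, also higher in the HSC libraries. The Mir193a region had percentiles of 42.1, 15.9, 34.0 and 28.9, and the Mir203 region 49.7, 8.85, 43.9 and 47.2, with overlapping groups in both cases. The region at Mir7671, 4.85 kb from Irf1, an interferon-induced transcription factor, stood at 89.4, 81.4, 45.6 and 57.3, higher in both HSC libraries. The region at Mir713 stood at 44.7, 4.57, 64.7 and 61.8, higher in both LSC libraries and with the HSC libraries far apart.

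Shared intergenic regions ranked low among shared regions. Their median percentile was 25.9, 27.2, 24.5 and 25.2. Regions inside genes had medians of 26.9, 28.4, 24.0 and 23.8, and regions at gene ends, within 1 kb of an annotated end, 65.5, 65.0, 66.1 and 65.8. Members thus resembled regions inside genes in rank, and both stood far below gene ends in every library. The median fold of members was 11.3, 14.5, 13.7 and 10.0. Between groups the median percentile differed by 1.75 points (26.6 ± 0.918 in HSCs, 24.8 ± 0.475 in LSCs, SD, n = 2 each). The exact two-sided permutation test over the 6 assignments gave p = 0.333, the smallest p this design allows. The difference was 6.75 points in equal-sized lists and 0.999 points (exact permutation p = 0.667) with members over 3 kb outside genes.

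**Figure D1:**
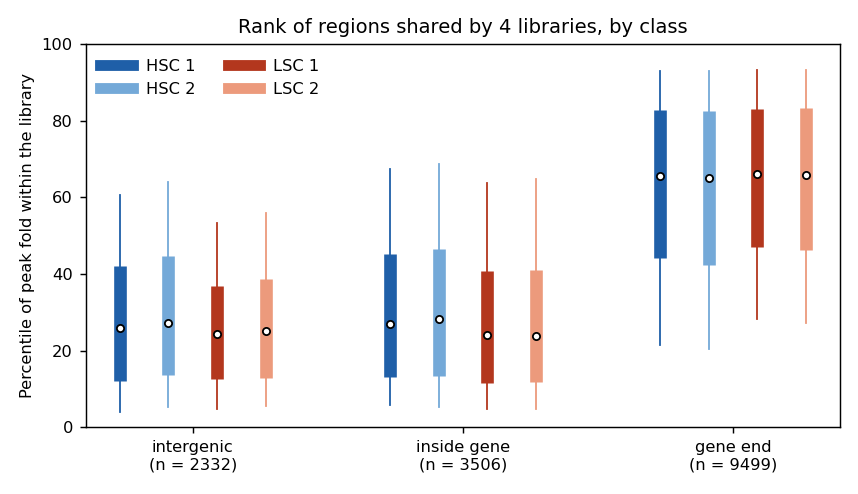
Percentile of peak fold within each library (y axis, 0 to 100) for the 15337 regions shared by 4 libraries, by class (x axis). White points are medians, thick bars span the quartiles and thin lines the 10th to 90th percentiles, and intergenic medians lie between 24.5 and 27.2 against 65.0 to 66.1 at gene ends.

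Intergenic peaks took a larger share of the HSC lists, 33.3% and 42.0%, than of the LSC lists, 26.2% and 25.5%. The group means were 37.7% ± 6.15 and 25.9% ± 0.518 (SD, n = 2 each), a difference of 11.8 points with an exact permutation p of 0.333. In lists shortened by -log10 p to 33885 peaks, the shares were 24.5%, 26.2%, 24.3% and 25.5%, a difference of 0.478 points (exact permutation p = 0.667), so the difference moved with list length. Of intergenic regions, 1.95% had a peak in all 4 libraries. The same was true of 2.51% of regions inside genes and 36.8% of those at gene ends. Only 67.0% and 65.7% of the members kept a peak in the shortened HSC lists, against 94.5% and 100% in the LSC lists, where the list of LSC 2 was kept whole.

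The sharing of intergenic regions rose with width, which is itself raised by merging peaks of 4 libraries. Members had a median width of 2114 bp, against 407 bp for the 117155 intergenic regions found in 1 to 3 libraries. Of intergenic regions 500 to 1000 bp wide 0.525% were shared, of those 1000 to 2000 bp wide 11.9%, of those 2000 to 4000 bp wide 51.0% and of wider ones 88.6%. Other regions, at or in genes, reached 0.657%, 16.5%, 75% and 98.4% in the same bands.

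Members lay a median of 9.93 kb from the nearest protein-coding gene (95% confidence interval of the median 9.22 to 10.6 kb, from order statistics over regions). The other intergenic regions lay at 22.0 kb (21.7 to 22.3 kb). Within 1 to 5 kb of a gene lay 31.3% of members and 18.1% of the others, and beyond 100 kb lay 5.19% and 22.4%. The share of intergenic regions found in all libraries fell from 3.33% at 1 to 5 kb to 0.458% beyond 100 kb. Width moved with this result. Among regions 500 to 1000 bp wide the order held, with the 168 members at 12.8 kb and the others at 17.1 kb, but it turned in the wider bands: among regions 1000 to 2000 bp wide, members lay at 10.4 kb and the others at 8.15 kb, among those 2000 to 4000 bp wide at 8.93 and 5.63 kb, and among wider ones at 8.81 and 3.91 kb. Of the 1842 members whose nearest gene had a strand in the tables, 58.8% lay upstream of it, close to the 57.4% of the other regions. By distance the 2 sets differed in both directions. The upstream shares of members and others were 64.1% and 58.4% at 1 to 5 kb, and 54.6% and 60.3% at 5 to 20 kb. They were 59.5% and 57.4% at 20 to 100 kb, and 54.5% and 52.5% beyond.

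**Figure D2:**
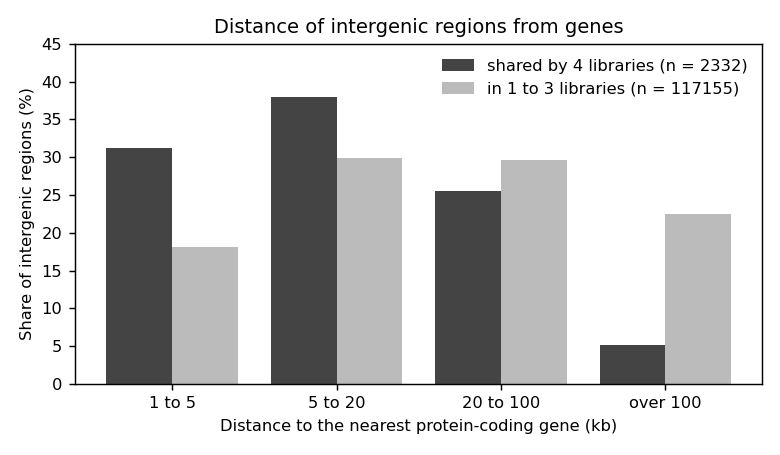
Share of intergenic regions (y axis, percent) by distance to the nearest protein-coding gene (x axis, kb), for 2332 regions shared by 4 libraries and 117155 found in 1 to 3. Dark bars exceed light bars below 20 kb, with 31.3% against 18.1% at 1 to 5 kb, and lie under them beyond 100 kb, with 5.19% against 22.4%.

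The members nearest to the 1 kb limit lay 1005 bp from Zdhhc1, with folds of 14.7, 8.62, 36.8 and 28.5, and 1006 bp from Dnajb1, with 13.5, 8.26, 6.13 and 7.09. The nearest regions left out lay 991 bp from Timm50, with 8.84, 8.38, 6.67 and 8.18, and 987 bp from Zfp846, with 26.3, 27.2, 104 and 91.8. The 111 members at 1 to 1.5 kb had median folds of 11.3, 12.7, 8.84 and 8.0, and the 96 shared regions at 0.5 to 1 kb 11.2, 14.5, 10.0 and 7.81. Band medians on both sides of the limit lay close together in each library.

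Summits of the same member agreed less closely than those of gene ends. The 4 summits spanned a median of 660 bp in members, 686.5 bp inside genes and 374 bp at gene ends. The median distance between summits was 339 bp for the HSC pair and 169 bp for the LSC pair. All 4 summits fell within 200 bp in 14.6% of members and in 28.6% of gene ends. Regions whose summits separated the groups numbered 36 (1.54%) among members, and 1.41% of all 15337 shared regions did so, a share near the background.

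In rank, 352 members (15.1%) stood higher in both HSC libraries than in both LSC libraries with group means at least 20 percentile points apart, and 186 (7.98%) stood higher in both LSC libraries by the same rule. Over all 15337 shared regions the shares were 8.82% and 7.67%. The HSC share of members was above this background and near that of regions inside genes, 13.0%, while gene ends had 5.73%. The LSC share of members was near the background when all ranks were pooled. Part of the contrast with gene ends followed rank: among regions with a mean percentile of 0 to 25, the HSC-higher shares were 10.5% of members, 10.1% inside genes and 9.17% at gene ends. Between the 25th and 50th percentile they were 19.1%, 19.3% and 9.03% in the same order. Between the 50th and 75th percentile they were 28.6% of 199 members, 13.6% of 405 regions inside genes and 6.50% of 3445 gene ends. The LSC-higher shares in this order were 7.69%, 5.68% and 15.3% at a mean percentile of 0 to 25. They were 9.69%, 9.70% and 17.0% at 25 to 50, and 5.53%, 6.67% and 6.94% at 50 to 75. At low and middle rank, members thus had a smaller LSC-higher share than gene ends. Regions are not replicates, and no test was made on these counts. In equal-sized lists the counts were 177 and 37 of 1150 members. Without 1 library in turn, which loosens the rule for members, they were 512 to 637 and 347 to 416, with 2762 to 3685 members. Shares over all shared regions were not counted under these settings, so these counts cannot be set against a background.

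**Figure D3:**
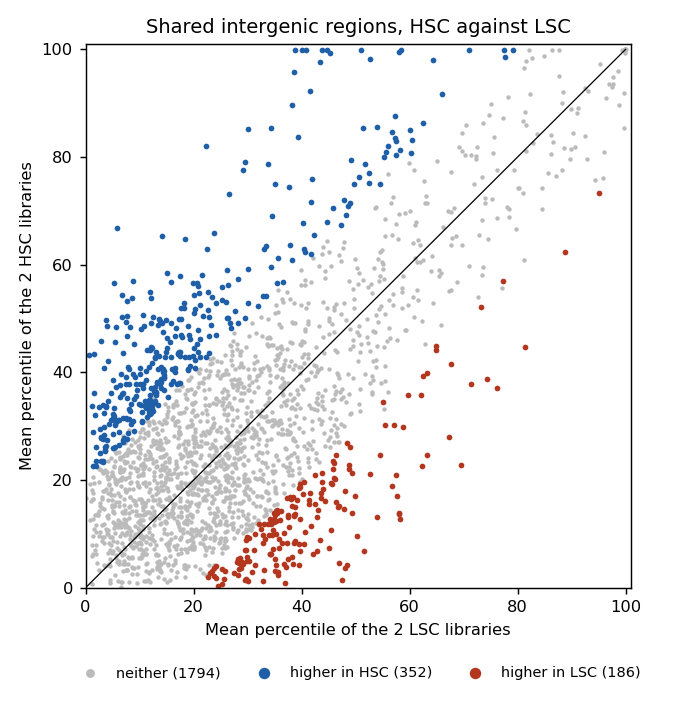
Mean percentile of each of the 2332 shared intergenic regions in the 2 HSC libraries (y axis) against the 2 LSC libraries (x axis), with the line of equality. Blue points (352) ranked higher in both HSC libraries by at least 20 points on average, red points (186) in both LSC libraries, and grey points (1794) in neither.

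Regions ranked higher in HSCs lay nearer to genes, at a median of 6.45 kb, than regions ranked higher in LSCs, at 16.6 kb. They were also wider (median 3079 and 1942 bp), and their summits spread over 970 and 417.5 bp. Non-coding genes were overlapped by 36.6% and 39.8% of them. The median percentiles of the HSC-higher regions were 44.5, 46.1, 13.8 and 16.5 in the order HSC 1, HSC 2, LSC 1, LSC 2, and those of the LSC-higher regions 7.63, 11.9, 38.4 and 39.6.

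The largest difference toward HSCs, 61.0 points, belonged to a region 113 kb upstream of Ptpn1, a protein tyrosine phosphatase that dampens cytokine and insulin signalling (chr2:167815480-167817577). Its folds were 23.6, 43.9, 6.31 and 5.45, at percentiles of 58.4, 75.1, 5.94 and 5.63. A region over the Y RNA gene Rny3, whose product binds the Ro60 protein, had folds of 191, 164, 30.8 and 42.0 (chr6:47775281-47786198, nearest gene Pdia4). It stood at percentiles of 99.8, 99.8, 37.1 and 50.4. A region near Fam3b that overlaps Mx1, annotated as a transcribed pseudogene of an interferon-induced antiviral gene, stood at 95.6, 96.0, 35.4 and 41.8. A region near Lilrb4a, an inhibitory receptor of myeloid cells, stood at 74.4, 89.7, 15.3 and 29.2. In all of these both HSC libraries lay above both LSC libraries. Of the other 6 of the 10 largest, 3 lay side by side near 9230019H11Rik (chr10:3109424-3110480, chr10:3111246-3115633 and chr10:3115951-3117164), 1 beside the very high region near Lrrc4c, and the others near Gm39469 and Aadac.

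The largest differences toward LSCs were 46.8 points at a region 29.8 kb upstream of Rps6ka1, a ribosomal S6 kinase of the MAPK pathway, and 46.1 points at a region 16.8 kb downstream of Setd3, an actin histidine methyltransferase. The Rps6ka1 region (chr4:133917615-133920291) had folds of 7.37, 18.3, 110 and 84.5 and percentiles of 7.63, 37.8, 66.8 and 72.2. The Setd3 region (chr12:108081771-108089655) had folds of 4.91, 5.31, 47.6 and 43.1 and percentiles of 0.776, 1.96, 44.0 and 51.0, so it was among the weakest shared regions in HSCs and of middle rank in LSCs. Gm9805, Eif4g2, Zfp956, Pick1, Mbp, Notch4, Myorg and Arhgap12 were the nearest genes of the other 8. Rps6ka1 also had 3 members ranked higher in HSCs, so regions near 1 gene ranked in both directions.

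Non-coding genes were overlapped by 830 members (35.6%, 95% Wilson interval 33.7 to 37.6%) and by 18.5% of the other intergenic regions. Wider regions meet more genes, and the midpoint, a measure that does not use width, lay over a non-coding gene in 26.1% of members (24.3 to 27.9%) and 17.6% of the others. lncRNAs were overlapped most often, by 28.6% of members and 15.8% of the others, with midpoint shares of 22.9% and 15.3%. Intervals cover counting error only and treat regions as independent, which neighbouring regions are not.

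The share of genes met by a member differed greatly between kinds of non-coding RNA. Of all non-coding genes lying outside coding genes, members overlapped 760 of 18346 (4.14%). They overlapped 35 of 56 rRNA genes, all between Gas8 and Rhou, both Y RNA genes, 93 of 332 tRNA genes and 463 of 7323 lncRNA genes (6.32%). The shares of snRNA genes (28 of 626, 4.47%) and microRNA genes (12 of 366, 3.28%) were near that of all non-coding genes. For snoRNA genes the count was 11 of 859 (1.28%). The 48 members over tRNA genes had median percentiles of 61.5, 59.7, 47.9 and 52.6. Of them, 11 (22.9%) ranked higher in HSCs and 2 (4.17%) in LSCs, beside 15.1% and 7.98% of all members and 8.82% and 7.67% of all shared regions. Such shares changed with rank, and among the 199 members with a mean percentile of 50 to 75 they were 28.6% and 5.53%. Members over tRNA genes were not compared with others of like rank. The region of 7442 bp near Olfr750 on chromosome 14 that holds the tRNA genes n-TLaag8, n-TPagg4 and n-TTtgt3 stood at 97.2, 98.9, 56 and 72.6. Rn7sk, the 7SK RNA that restrains P-TEFb, lay in a region of folds 30.5, 50.5, 59.0 and 53.1, at percentiles of 69.9, 80.7, 48.2 and 56.9. Rny1, the other Y RNA gene, stood at 55.2, 43.1, 26.0 and 27.6. At the single regions over Rny1, Rny3 and Rn7sk both HSC libraries stood above both LSC libraries, while tRNA regions went both ways. Terc, the telomerase RNA, went the other way, at 15.4, 16.8, 54.0 and 34.5, with LSC 1 and LSC 2 far apart. The share of all members with either order was not counted, so these single regions give no result about RNA polymerase III genes as a class. Of 9 members over snoRNA genes, 0 ranked higher in HSCs and 2 in LSCs, counts too small to set apart from the 15.1% and 7.98% of all members. One of them, with Snora26 and the start of Dancr shown above, had folds of 37.3, 36.4, 231 and 169, at 79.4, 67.2, 95.2 and 95.1.

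The 5S rRNA genes formed the densest group of members. Between Gas8, a ciliary gene, and Rhou on chromosome 8 lie 48 annotated rRNA genes, 35 of them over members, and 12 members. Of these 12, 11 ranked higher in HSCs, beside 15.1% of all members and 8.82% of all shared regions. In all 12 both HSC libraries stood above both LSC libraries, an order whose share over all members was not counted. Median percentiles were 40.7, 37.7, 8.20 and 22.0. The highest (chr8:123600472-123604360) stood at 88.8, 90.4, 33.6 and 43.0, and the widest (20594 bp, with 11 rRNA genes) at 57.0, 57.8, 25.2 and 31.3. The members share 1 repeat and 1 locus and count as 1 observation of the locus. Copies of a repeat can exchange reads in alignment, and how reads with several matches were handled is not given in the sources used here.

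**Figure D4:**
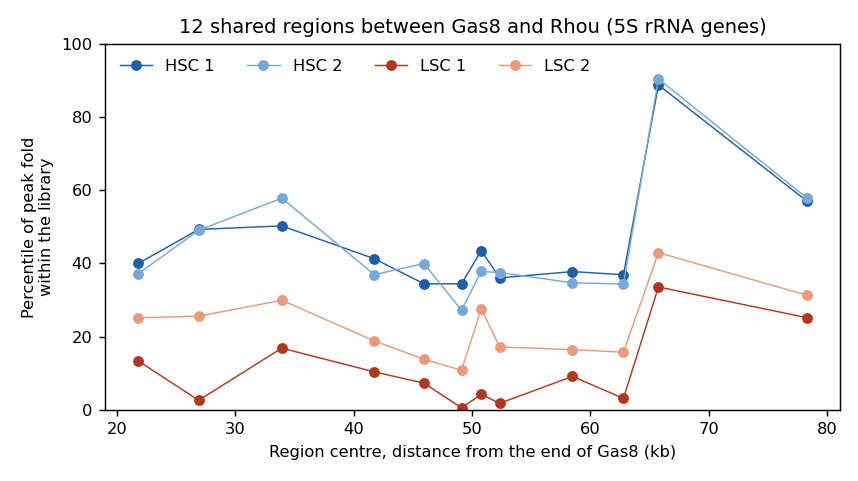
Percentile of peak fold within each library (y axis, 0 to 100) for the 12 shared regions between Gas8 and Rhou, by distance of the region's centre from the end of Gas8 (x axis, kb). Both blue HSC lines lie above both red LSC lines at all 12 regions, with medians of 40.7 and 37.7 against 8.20 and 22.0.

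Firre, a lncRNA of the X chromosome that binds the nuclear matrix and organises contacts between chromosomes, held 9 members (chrX:50563120-50635321). Their median percentiles were 23.8, 29.9, 31.9 and 35.4. The member at the Firre start shown above stood at 23.8, 14.8, 42.7 and 48.7, higher in both LSC libraries. Inside the gene 1 more member ranked higher in LSCs and the other 7 in neither group. Among lncRNAs of high rank in all libraries, Malat1, an abundant nuclear RNA, lay in the widest member, 30856 bp, at 93.9, 96.3, 88.6 and 86.8. Morrbid, which regulates the lifespan of short-lived myeloid cells, stood at 88.8, 95.5, 83.3 and 93.4. Chaserr, a lncRNA beside Chd2 that acts on its expression, stood at 90.3, 82.2, 78.2 and 69.1, and the Snhg20 region at 79.4, 84.0, 88.7 and 88.5.

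Members were nearest to 1721 of 21887 protein-coding genes, 7.86%. Of these genes 1317 had 1 member, 277 had 2 and 127 had 3 or more. The share of genes nearest to a member rose with the gene-free flank from 0.0646% of genes with under 1 kb to 12.3% of those with 100 to 300 kb, and was 9.73% of those with over 300 kb. The share of each list is therefore given beside its median flank, which is 37.7 kb over all genes. Gas8 and Osbpl8, a lipid transfer protein, had the most members, 9 each. Olfr1324, beside Firre, had 8, and Zfp516, Chd2, Ly86 and Rps6ka1 followed with 6 to 7.

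Immediate early and circadian genes were most often nearest to a member, 16 of 32 (median flank 123 kb), followed by 12 of 30 myeloid transcription factors (198 kb), 11 of 30 iron handling genes (45.1 kb), 2 of 7 stem cell heptad factors (116 kb), 8 of 30 MLL fusion targets (226 kb) and 7 of 30 ferroptosis defence genes (63.3 kb). The HSC programme had 7 of 34 (61.5 kb), interferon-stimulated genes 4 of 20 (15.5 kb), neutrophil granule genes 4 of 25 (33.9 kb) and cytosolic ribosomal protein genes 11 of 76 (15.6 kb). Blood cytokine receptors and chromatin regulators each had 6 of 32 (47.3 and 38.3 kb). Below the share of all genes lay B cell genes with 1 of 20 (26.0 kb), erythroid genes with 1 of 23 (16.0 kb), T and NK cell genes with 1 of 24 (47.7 kb) and megakaryocyte genes with 0 of 20 (24.4 kb). Nuclear pore genes with 2 of 30 (15.6 kb), chemokines and inflammatory cytokines with 1 of 30 (53.2 kb) and olfactory receptors with 7 of 1110 (40.02 kb) were also below it. Apart from olfactory receptors, the counts of these lower lists are too small to set them apart from the 7.86% of all genes. The 1 B cell gene was Cr2, counted through regions at 64.4 and 195 kb that are both among the strongest members described below. Flanks differ between lists, and the part they have in these shares was not tested. Nearest does not mean regulated.

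Among myeloid factors, Cebpb, which drives emergency granulopoiesis, had 5 members at 7.70 to 112 kb, and the region 60.9 kb downstream (chr2:167751318-167763057) stood at 55.7, 42.9, 28.7 and 27.6, higher in HSCs. The AP-1 genes Fos and Jun had 2 and 3 members. The Fos region 7.76 kb downstream had the higher values, 85.8, 69.4, 55.0 and 66.8, with both HSC libraries above both LSC libraries by less than the 20 points of the rule. Myc, a driver of proliferation, had 1 member 47.3 kb away, at 21.5, 43.7, 51.1 and 40.3, with overlapping groups. The 2 Myb members and the 2 Lmo2 members ranked in neither direction. At known distal elements, 2 members lay at the Cebpa enhancer 37 kb downstream of the gene, with percentiles of at most 22.2, and 1 at the Gata2 enhancer 77 kb upstream, at 15.4, 8.17, 2.15 and 8.63. None lay at those of Spi1, Gfi1, Irf8, Tal1 and Cebpe, within 3 kb. Shared regions did lie at the Spi1 element (2) and the Cebpe element (1), but within 1 kb of a gene or inside one, and so were not members.

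Genes of iron and oxidant handling, which set the sensitivity of cells to ferroptosis, had members of both directions. The Hmox1 region (heme oxygenase 1), 6.24 kb away, stood at 26.9, 54.8, 19.6 and 0.597, higher in HSCs. That of Iscu, the scaffold of iron-sulfur cluster assembly, stood at 75.1, 92.2, 41.8 and 36.8, also higher in HSCs, and that of Tfrc, the transferrin receptor, at 23.8, 26.5, 0.522 and 4.71. The region at Gclc, the catalytic subunit of glutathione synthesis, stood at 42.8, 11.1, 50.0 and 46.7, higher in LSCs with the HSC libraries far apart. Regions near Keap1, Txnrd1, Scd1, Scd2, Coq2 and Fth1 ranked in neither direction. Among iron handling genes 3 of 11 members ranked higher in HSCs and 0 in LSCs, and among ferroptosis defence genes 1 and 1 of 7. Beside 15.1% and 7.98% of all members, and 8.82% and 7.67% of all shared regions, these counts are too small to set the lists apart.

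Of 5 members nearest to interferon-stimulated genes, 2 ranked higher in HSCs and 0 in LSCs. Over all members the shares were 15.1% and 7.98%, and over all shared regions 8.82% and 7.67%. The counts for this list are too small to set it apart. Both HSC-higher regions lay near Ifitm3. The members near this gene, an antiviral membrane protein, stood at 53.3, 51.4, 30.2 and 33.6 and at 55.7, 35.6, 0.290 and 10.8. Ifnar1, a chain of the type I interferon receptor, had 5 members, 2 higher in HSCs and 1 in LSCs. The region 2.25 kb upstream of Cdkn1a, the p21 inhibitor of the cell cycle, stood at 52.8, 61.2, 9.12 and 8.63, higher in HSCs by 48.1 points. The other Cdkn1a member, 10.5 kb upstream, stood at 14.4, 30.5, 43.5 and 39.4, with both LSC libraries above both HSC libraries by less than the 20 points of the rule. The region 58.5 kb upstream of Cd34, a gene of the LSC sort, stood at 13.3, 1.21, 38.5 and 31.1, higher in LSCs. The other Cd34 member, 15.03 kb downstream, was stronger, at 59.2, 45.2, 49.6 and 42.6, with overlapping groups. The region near Lyz2, a lysozyme gene of myeloid cells, stood at 32.7, 0.564, 42.1 and 45.1, also higher in LSCs. Nup153, a nuclear pore gene, had 2 members, of which 1 ranked higher in HSCs, at 57.9, 40.5, 7.92 and 23.8.

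The strongest members reached folds that no shared region at or in genes did. In 18 members a peak exceeded a fold of 1000 in at least 1 library, and 0 of the 13005 shared regions at or in genes did so. The highest lay 1035 kb from Lrrc4c, a synaptic adhesion gene, on chromosome 2 (98666228-98667347), with folds of 92615, 83449, 9543 and 41434 and the top rank in every library. Of the 18, 7 were the last region of their chromosome in these lists, near Fgf14, Mrgprd, Tmem196, Gm45871, Gm14496, Tcstv3 and Cr2. The region near Mrgprd, one of these, had folds of 4827, 7293, 2639 and 2132. Other regions among the 18 lay near Lrrc4c (2 more), Alkbh8 (2), Rpusd4, Gm2244, Asmt, 4930467E23Rik, Cr2 and the immunoglobulin heavy chain J and D segments. The heavy chain region (chr12:113422880-113432537, nearest gene Adam6b) had folds of 483, 667, 4446 and 2025. A region near Alkbh8 (chr9:3009144-3038335) had 1279, 1276, 127 and 538, so not all 18 exceeded 1000 in every library. Some intervals of the mm10 assembly are commonly masked because many assays give high signal there. No masking list was used, so which of the 18 fall in such intervals is not known. Whether the 18 are Sub1 sites was not tested. Without the 18, 2314 members were left, with 353 ranked higher in HSCs and 188 in LSCs.

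**Figure D5:**
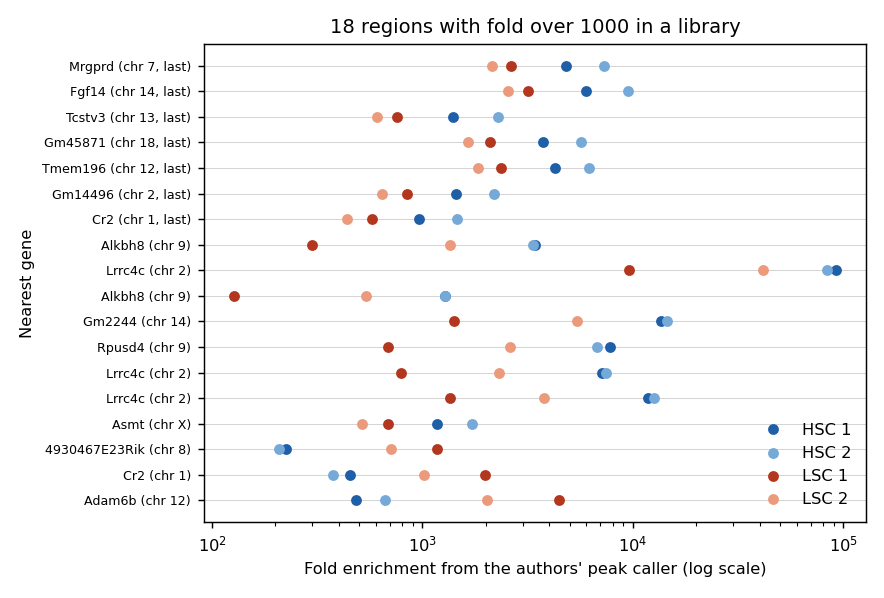
Fold enrichment by the authors' peak caller (x axis, log scale) in each library for the 18 shared intergenic regions above 1000 in at least 1 library (y axis, nearest gene and chromosome, with "last" for the last region of a chromosome). The highest, near Lrrc4c, reaches 92615, 83449, 9543 and 41434.

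Below a fold of 1000 in every library, the member of highest rank throughout lay 186 kb from 9530057J20Rik, followed by regions near Gm35315, Flacc1 and Utf1. The region near Utf1, a gene of undifferentiated embryonic cells, had folds of 53.8, 90.5, 275 and 193 and percentiles of 93.2, 96.7, 98.1 and 97.2. Members lay near each other, 817 (35.0%) within 10 kb of another and 1262 (54.1%) within 50 kb, and 1566 of the 16782 gene-free intervals over 2 kb long held at least 1.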

How the data were processed

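Sub1 CUT&Tag was deposited as 1 peak list for each of 4 libraries, 2 HSC and 2 LSC. Per the submitters' processing notes, FastQC 0.11.5, Bowtie2 2.2.9, MACS2, ChIPseeker and mm10 were used, with other settings not given in the sources used here. The deposited fold is a ratio of pileup to background at the summit. The deposited lists also hold -log10 p and -log10 q and a score, 10 times -log10 q rounded down by the authors' caller. Read totals were not analysed here, so depth is unknown beyond the peak numbers. Genes came from RefSeq for GRCm38.p6, and sequences from its tables.

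Peaks were merged by 1 bp overlap with Python 3.11.15, NumPy 2.4.6, pandas 2.3.3 and SciPy 1.17.1, and the steps were tested on simulated data. Per library, regions found in all 4 were ranked by their highest fold. Groups were compared by a two-sided exact permutation test over 6 assignments. Regions were named by rank, distance, group difference, number per gene, gene list, known element or non-coding gene overlapped. Single lncRNA regions, list regions beyond the leading 3 and counts by width and midpoint were chosen after their values were seen. The members and lists were chosen with earlier results of these data known. Alternatives are described under the closing observations. Regions with a fold over 1000 were left out in an alternative added after seeing the data.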

Additional observations from a re-analysis of the deposited data

How the results depend on the processing

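Among 85 values recomputed under alternatives, only the group differences in intergenic share and median percentile have a direction that could turn, and 0 did. A total of 38 moved by more than the set limits. The other 47 did not or, for the group differences, kept direction, whatever their size or p. The latter include large shifts: the difference in intergenic share was 0.478 points in equal-sized lists, and that in median percentile 6.75 points there, 0.999 points (exact permutation p = 0.667) at 3 kb outside genes and 2.78 points at a -log10 q of at least 10. With all annotated genes in place of protein-coding ones, members numbered 1411, with 210 ranked higher in HSCs and 109 in LSCs, a median distance of 5.24 kb and 5.19% of genes nearest to a member. With equal-sized lists, members numbered 1150, with 177 higher in HSCs and 37 in LSCs, 42.5% over a non-coding gene and 4.27% of genes, and the LSC-higher count fell most. At 3 kb outside genes the distance was 13.7 kb, the non-coding share 38.1% and the gene share 6.37%. With summits in place of peaks, 116 ranked higher in LSCs, 31.9% lay over a non-coding gene and 6.84% of genes were nearest. A -log10 q of at least 10 gave 7.08% of genes, non-coding genes within 1 kb gave 39.5%, and 30 percentile points gave 121 and 53 regions. Leaving out each library in turn gave 2762 to 3685 members, 512 to 637 higher in HSCs, 347 to 416 higher in LSCs, a distance of 7.02 to 10.4 kb, 29.9 to 33.7% over a non-coding gene, 9.12 to 11.1% of genes, differences in the intergenic share of 7.47 to 16.2 points and in the median percentile of 1.25 to 2.92 points. Fewer libraries have to hold a peak then, which raises the counts. For none of the alternatives were the HSC-higher and LSC-higher shares over all shared regions counted. The number was highest, 3685, without LSC 1. The replicate numbers are shared between groups, but with 2 pairs they were not taken to pair the libraries: the deviations correlated at r = 0.207 over 15337 regions. With the replicate number as a block the differences stayed at 11.8 and 1.75 points, with an exact paired p of 0.5, the smallest possible. Depth was not given, so no limit of detection can be set.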

Other observations

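Peaks outside the main chromosomes, on unplaced sequence, numbered 686, 1263, 354 and 300 in HSC 1, HSC 2, LSC 1 and LSC 2, and entered no region.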
